A study of Mus musculus with 400 samples.

Results

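The mitochondrial genome transcripts were the 15 genes of the deposited count table whose mouse symbol starts with mt-, out of 33496 genes in the table. Of these, 13 code for proteins of the respiratory chain and 2 are ribosomal RNAs. The mouse annotation (GENCODE M21, genome build GRCm38) also lists 22 mitochondrial transfer RNA genes, which were not analysed here. The table covers 400 stem cells of the small intestine, sorted for high Lgr5, and the counts are described over the 380 of them with a total count of 10000 or more. The crypts were those of the proximal gut, duodenum with jejunum, and the mice carried Lgr5::EGFP-IRES-Cre-ERT2, a fluorescent reporter placed at the gene of the stem cell receptor Lgr5 (Lgr5 GFP/+ in the labels). EDTA and dispase freed the cells, DAPI marked the dead ones, and the living were sorted. Single cells were captured on a Fluidigm C1 HT chip, and polyA RNA was turned into cDNA and amplified with a SMARTer kit. The labels give neither an age nor an animal for any cell, and they do not say whether these mice had the tamoxifen that the protocols describe for lineage tracing. All cells therefore count as 1 sample. Cells are not replicates, so the values are descriptions, with no test, and their spread is the standard deviation (SD) over 10 library sets of 36 to 39 kept cells, read from the sample titles.

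Mitochondria keep a small circular genome that is transcribed from both strands into long precursors. The tRNAs between the genes are cut out, which frees the messenger and ribosomal RNAs, and most of these receive a short poly(A) tail. The proteins are core subunits of complexes I, III and IV and of ATP synthase, and they are joined by many subunits made from nuclear genes. Lgr5-positive stem cells of the intestine are known to depend on mitochondrial respiration more than their Paneth cell neighbours.

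Neighbouring genes on this genome overlap or end without a full stop codon, and these places are shown because a read that falls there belongs to more than 1 gene or ends at the tail. Sequences are those of the GENCODE M21 transcripts on GRCm38, 5′ to 3′. The first line is plus strand chrM:7907-7989, with the 43 bases that are both the end of mt-Atp8 and the start of mt-Atp6 in capitals. The second is plus strand chrM:10147-10193, with the 7 bases that mt-Nd4l and mt-Nd4 share in capitals. The other 2 lines are the last 40 bases of mt-Nd5 (plus strand, chrM:13526-13565) and of mt-Nd6 (minus strand, chrM:13552-13591), with the 14 bases that lie opposite each other in capitals.
mt-Atp8 and mt-Atp6: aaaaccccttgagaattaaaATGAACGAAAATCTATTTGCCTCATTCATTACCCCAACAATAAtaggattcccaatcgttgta
mt-Nd4l and mt-Nd4: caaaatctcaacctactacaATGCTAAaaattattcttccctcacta
mt-Nd5 end: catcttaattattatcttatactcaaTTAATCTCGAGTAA
mt-Nd6 end: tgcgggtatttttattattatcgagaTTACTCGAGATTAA

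The lengths of mt-Co3, mt-Nd4 and mt-Cytb leave 1 base after the last full codon, a T, which the poly(A) tail is known to complete to a stop codon. Their last 30 bases follow, on the plus strand, with that base in capitals (mt-Co3 at chrM:9361-9390, mt-Nd4 at chrM:11515-11544, mt-Cytb at chrM:15259-15288).
mt-Co3 end: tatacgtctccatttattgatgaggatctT
mt-Nd4 end: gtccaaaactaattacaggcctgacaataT
mt-Cytb end: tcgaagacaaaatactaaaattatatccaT
mt-Nd6 was the 1 coding gene annotated on the minus strand, and its base composition on the sense strand stood apart. It held 43.7% T, 28.1% G, 22.2% A and 5.97% C. The other 12 coding genes held 29.5% to 40.7% A and 5.88% to 16.1% G.

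The kept cells had total counts of 10766 to 70133, with a median of 32112, and 4661 to 16082 genes with a count. The 5 stem cell markers examined (Lgr5, Olfm4, Smoc2, Ascl2 and Axin2) had a count in 91.1% to 100% of cells, as the label says. Markers of other cell types also had counts, from 39.7% to 95.5% of cells for 4 Paneth markers and 32.6% to 84.2% for 4 goblet markers to 2.63% to 13.7% for 4 enteroendocrine and 0.263% to 31.1% for 4 immune markers. Their part in the mitochondrial values was not tested. No count in the table was above 36, and high counts varied less than their mean, so the scale was flattened near 30. The sources used here do not give the cause of this, nor whether molecular identifiers were used.

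Mitochondrial transcripts took a small share of the counts, which varied by 33.4% over cells (coefficient of variation). The summed mitochondrial count itself varied by 9.78% over cells, against 30.3% for the total count by which it is divided. No gene had a count above 36, so the flattened scale limits how large this share can be. The mitochondrial share had a lowest value of 0.479%, a median of 0.887% and a highest value of 2.47% over the 380 cells. The medians of the 10 library sets lay between 0.780% and 0.994%. The summed mitochondrial count averaged 285.5 (SD over cells 27.9). The coding genes gave 225.3 of these counts (SD 26.3) and the ribosomal RNAs 60.2 (SD 2.92). The mean coding sum varied by 2.12% over library sets, against 9.32% for the mean total count, but most of it lies on the flattened part of the scale. The median variation of the coding genes over sets was 3.27% as counted, and 4.94% with the counts mapped back to the number of molecules described below. These genes nevertheless filled the top of the table, with 7 of the 10 and 9 of the 20 highest mean counts. Of the 903 values of 30 or more in the kept cells, 803 (88.9%) were mitochondrial, and 90% of cells had at least 1 of them.

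The ribosomal RNAs had the highest mean counts of all genes. mt-Rnr2, the RNA of the large mitochondrial ribosomal subunit, had a mean count of 30.4 ± 0.264 (SD over 10 library sets), with a lowest cell at 26, a median of 30 and a highest cell at 36. mt-Rnr1, the RNA of the small subunit, had a mean count of 29.8 ± 0.382, with cells from 24 through a median of 30 to 35. A count of 30 or more was seen for mt-Rnr2 in 72.9% and for mt-Rnr1 in 58.7% of cells.

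The complex I subunits covered the widest range of counts. mt-Nd4 had cells from 20 through a median of 28 to 33 (mean 27.7 ± 0.369), and mt-Nd1 from 19 through 27 to 33 (mean 26.7 ± 0.605). mt-Nd2 had cells from 12 through 24 to 31 (mean 23.96 ± 0.662), and mt-Nd5 from 10 through 21 to 30 (mean 21.2 ± 0.796). These 4 genes had a count in 380 of 380 cells, while the other 3 were missed in some. mt-Nd3 had 0 to 16 counts with a median of 4 (mean 4.86 ± 0.620), and a count in 95.8% of cells (exact Clopper-Pearson 95% interval 93.3% to 97.6%). mt-Nd4l had 0 to 18 counts with a median of 2 (mean 2.63 ± 0.631), and a count in 76.8% of cells (interval 72.3% to 80.99%). mt-Nd6 had 0 to 13 counts with a median of 1 (mean 1.58 ± 0.231), and a count in 67.1% of cells (interval 62.1% to 71.8%). The intervals cover counting error only. The labels call the RNA polyA RNA, and mt-Nd6 messenger RNA is known, from human cells, to lack a long poly(A) tail. The counting is not stated to use strand, so reads of mt-Nd6 and of RNA from the other strand of its gene cannot be told apart.

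The subunits of complexes III and IV had a count in every cell. mt-Cytb, the mitochondrial subunit of complex III, had cells from 23 through a median of 29 to 35 (mean 28.8 ± 0.219). mt-Co1, the catalytic subunit of complex IV, had cells from 14 through 26 to 31 (mean 25.6 ± 0.451). mt-Co3 had cells from 7 through 22 to 30 (mean 21.3 ± 0.700), and mt-Co2 from 5 through 20 to 29 (mean 19.7 ± 0.645). The lowest cells of mt-Co2 and mt-Co3 thus reached much further down than those of mt-Cytb. The counts of the 2 ATP synthase subunits stood apart from each other, although their genes overlap. mt-Atp6, part of the proton channel, had cells from 4 through 19 to 27 (mean 18.8 ± 0.597). mt-Atp8 had 0 to 13 counts with a median of 2 (mean 2.64 ± 0.219), and a count in 85% of cells (interval 81.01% to 88.4%).

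**Figure D1:**
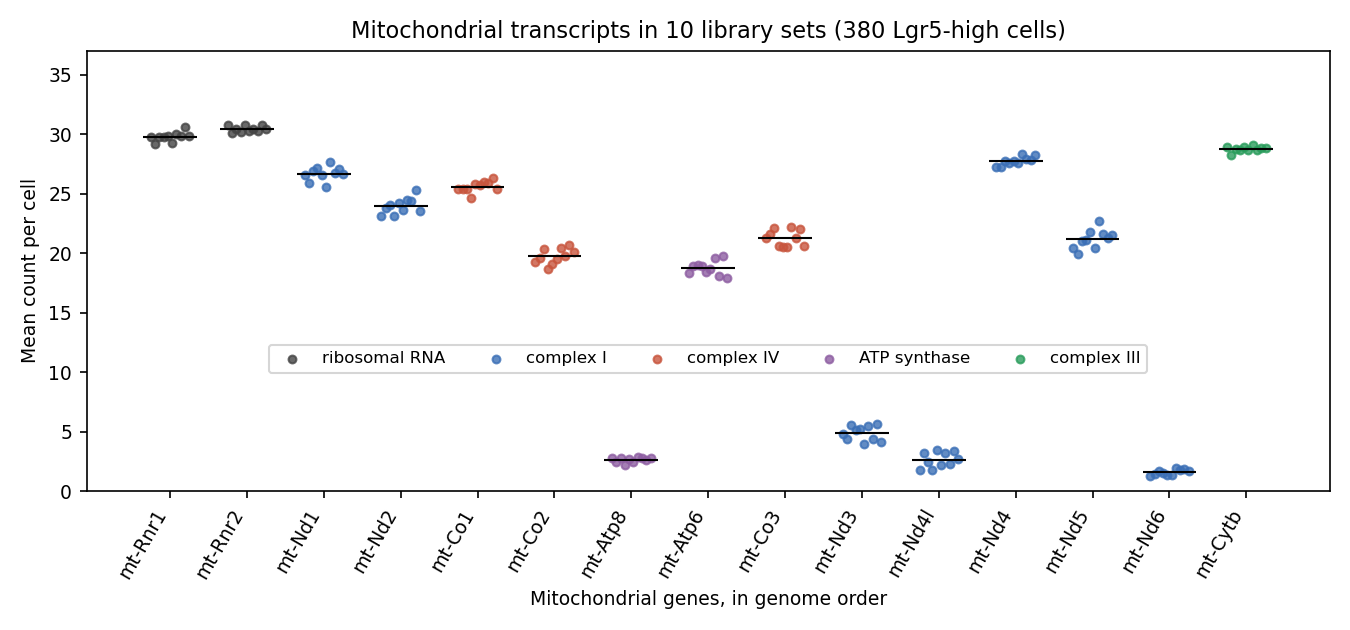
Mean count per cell (vertical axis) of each mitochondrial gene in the 10 library sets (points, in set order) and over all 380 cells (line), coloured by the complex the gene belongs to. The 2 ribosomal RNAs and 9 coding genes had mean counts of 18.8 to 30.4, and mt-Nd3, mt-Atp8, mt-Nd4l and mt-Nd6 had 1.58 to 4.86.

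Set per kilobase of gene, the counts kept mt-Nd6 last and changed the order of the others. Dividing by length takes a count to rise with the length of its gene, which was not tested for this polyA RNA. mt-Rnr1 came first with 31.2 ± 0.400 counts per kilobase (SD over 10 library sets), and mt-Rnr2 had 19.2 ± 0.167. Both have counts near 30, so their ratio per kilobase, 1.62, is close to the ratio of their lengths, 1.66, and says little of their levels. mt-Co2 (28.8 ± 0.943), mt-Nd1 (27.9 ± 0.632), mt-Atp6 (27.5 ± 0.876) and mt-Co3 (27.1 ± 0.893) followed mt-Rnr1. Among these 4, neither mt-Nd1 and mt-Atp6 nor mt-Atp6 and mt-Co3 differed by more than the SD of their difference over sets (0.829 and 0.725 counts per kilobase). mt-Cytb had 25.1 ± 0.192, mt-Nd2 23.1 ± 0.638, mt-Nd4 20.1 ± 0.268 and mt-Co1 16.6 ± 0.292 counts per kilobase. The low end held mt-Nd3 (13.97 ± 1.78), mt-Atp8 (12.96 ± 1.07), mt-Nd5 (11.6 ± 0.436), mt-Nd4l (8.87 ± 2.12) and mt-Nd6 (3.04 ± 0.444). mt-Nd3 and mt-Atp8 differed by 1.01 counts per kilobase, less than the SD of 1.88. The other neighbours in this order differed by more than that SD, and in the same direction in at least 9 of 10 sets. Counts per kilobase of genes that overlap also differed. No annotated tRNA gene lies between mt-Atp8 and mt-Atp6 or between mt-Nd4l and mt-Nd4. Whether the genes of each pair were counted from a shared RNA or from separate RNAs was not tested. mt-Atp6 had 2.12 times the counts per kilobase of mt-Atp8, mt-Nd4 2.27 times those of mt-Nd4l, and mt-Nd5 3.82 times those of mt-Nd6 on the other strand. The sizes of these folds depended on the scale and on nuclear copies.

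The flattening of high counts bears on this order. If a count is taken to be the number of filled places among 37 (1 more than the largest value), the number of molecules behind it can be estimated, and the top of the order then moved. On that scale mt-Rnr1 stayed first at 64.7 per kilobase, followed by mt-Nd1 at 50.4, mt-Cytb at 49.7 and mt-Co2 at 42.4. mt-Rnr2 moved up to 41.4, ahead of mt-Atp6 at 39.4 and mt-Nd2 at 38.2. The last places went to mt-Nd4l at 9.69 and mt-Nd6 at 3.22. The folds between overlapping genes became 2.84 for mt-Atp6 over mt-Atp8, 3.93 for mt-Nd4 over mt-Nd4l and 5.46 for mt-Nd5 over mt-Nd6. The assumption of 37 places was not tested.

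Nuclear copies of mitochondrial genes, described further on, bear on the order as well. With the counts of all matching copies added to their gene, a choice made after seeing the data, mt-Co2 came first at 73.3 per kilobase, before mt-Atp6 at 61.6, mt-Co3 at 52.4 and mt-Co1 at 40.04. mt-Rnr1, at 31.2, then came after these 4, and mt-Nd6 was still last at 3.05. The folds were 4.75 for mt-Atp6 over mt-Atp8, 1.49 for mt-Nd4 over mt-Nd4l and 4.83 for mt-Nd5 over mt-Nd6. Each was in the same direction as before. No copy was added to mt-Rnr1, mt-Rnr2, mt-Nd1 or mt-Atp8, which were the longest match of none. The fold of mt-Atp6 over mt-Atp8 could thus only rise. Full counts were added even where only part of a copy's transcript matched, as with Gm43743 for mt-Atp6. The order of the high genes is therefore not settled by these counts.

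The 11 mitochondrial genes with high counts rose little with depth, and in general the less the higher they were. The cells were ranked by total and cut into 3 equal groups, of which the top is called the deep and the bottom the shallow cells. Deep cells had a mean total of 42467, against 21466 in shallow cells, a ratio of 1.98. mt-Rnr2 had a mean count of 30.9 in deep and 29.96 in shallow cells, a ratio of 1.03. mt-Cytb had 29.4 in deep and 27.7 in shallow cells, a ratio of 1.06. mt-Co2, with 21.8 in deep and 17.4 in shallow cells, reached 1.25, and mt-Atp6, with 20.8 in deep and 16.5 in shallow cells, reached 1.26. The 9 coding genes seen in every cell thus stayed between 1.06 and 1.26, while the total rose by the ratio of 1.98. Ratios below 1.5 were found for 10 of the 13 coding genes and both ribosomal RNAs, against 19.6% of the 17217 genes tested, which had counts in at least 10% of the cells. The median ratio was 1.20 for the coding genes and 2.04 for all genes tested.

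Of the 4 genes with low counts, 3 went with depth and mt-Nd6 did so least. mt-Nd4l had a mean count of 3.77 in deep and 1.52 in shallow cells, a ratio of 2.48. mt-Atp8 had 3.71 in deep and 1.54 in shallow cells, a ratio of 2.41, and mt-Nd3 6.45 in deep and 3.57 in shallow cells, a ratio of 1.80. mt-Nd6 had 1.86 in deep and 1.46 in shallow cells, a ratio of 1.27. Over 5 equal groups of cells from low to high total, its mean counts were 1.20, 1.74, 1.25, 1.59 and 2.11, which is no steady order. Nuclear genes with a mean count of 1 to 2 had a median ratio of 2.16, and 10% of them were at 1.46 or below. The 1.27 of mt-Nd6 lies below that value, but its standard error from leaving out 1 library set at a time was 0.283. It ran from 1.13 without library set 7 to 1.46 without library set 5. Between the top and the bottom of 5 groups it was 1.76. The share of cells with mt-Nd6 was 79.4% in deep and 55.9% in shallow cells. Whether mt-Nd6 differs here from nuclear genes of like count is not settled.

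**Figure D2:**
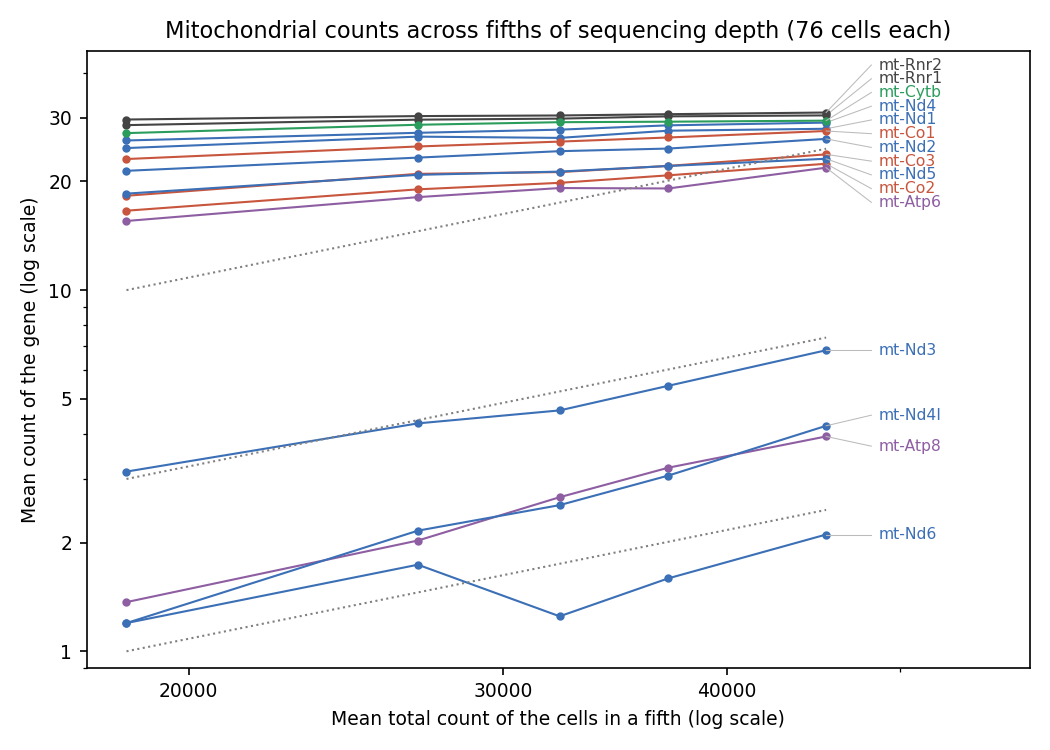
Mean count of each mitochondrial gene (vertical axis, log scale) against the mean total count of cells in 5 equal groups by depth (horizontal axis, log scale), coloured as by complex, with dotted lines for a count in proportion to the total. The lines of the 11 high genes are flatter than the dotted lines, those of mt-Nd4l and mt-Atp8 climb faster than these and that of mt-Nd3 a little slower, and mt-Nd6 moves up and down from 1.20 to 2.11.

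Nuclear genes with like counts were also flattened, to a lesser degree by the medians of bands of mean count. With a mean count of 16 to 20, 61 nuclear genes had a median ratio of 1.45, and mt-Co2 and mt-Atp6 had a median of 1.26. With 20 to 25, 17 nuclear genes had a median of 1.32, and mt-Nd2, mt-Co3 and mt-Nd5 had a median of 1.18. At 25 or more, the 6 mitochondrial genes had a median of 1.08, beside 1.16 for the 1 nuclear gene there, Gm42418. Levels differ within this band. Gm42418 had a mean count of 25.3, and mt-Co1, the closest of the 6 at 25.6, had a ratio of 1.15. In the same bands the nuclear genes of 16 to 20 went down to a ratio of 1.00 and those of 20 to 25 to 1.21, so the mitochondrial values lay within the first range and below the second. The share of total counts went the other way from the counts. The mitochondrial share was 0.725% in deep and 1.30% in shallow cells, a ratio of 0.557, while the coding sum was 243.1 in deep and 205.4 in shallow cells.

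**Figure D3:**
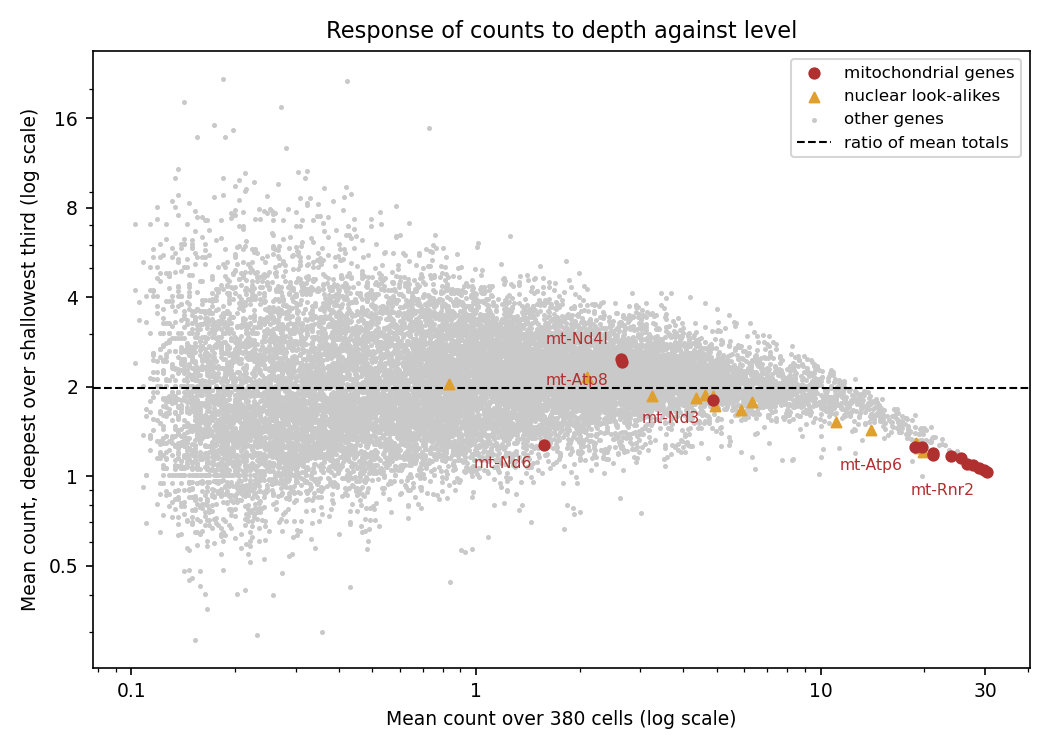
Ratio of the mean count in deep over that in shallow cells (the top and the bottom of 3 equal groups by total; vertical axis, log scale) against the mean count over 380 cells (horizontal axis, log scale), for mitochondrial genes, their nuclear look-alikes and all other genes tested, with a dashed line at the ratio of mean totals, 1.98. The cloud narrows and bends down above a mean count of about 10, and the 11 mitochondrial genes with high counts lie at that end. mt-Nd4l and mt-Atp8 lie above the dashed line, mt-Nd3 a little below it, and mt-Nd6 in the lower part of the cloud.

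Nuclear chromosomes carry copies of pieces of mitochondrial DNA, and counts were assigned to such copies here. A search of all other annotated transcripts found 17 nuclear genes that match a mitochondrial transcript at 90% identity or more over at least 100 bases. Of these 16 were in the table, all annotated as pseudogenes, and 15 had a mean count of 0.1 or more. Together they averaged 139.2 counts per cell (SD over cells 35.98), and took a median of 0.432% of the counts of a cell. With them the mitochondrial share had a median of 1.32%.

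Copies of nearly a whole gene with 99.7% identity or more had almost the same counts as that gene. On chromosome 1, between 24611535 and 24616197, 7 copies lie side by side, in the reverse of their mitochondrial order. mt-Co2 had a mean count of 19.7 and its copy Gm28661 (100% identity over 681 bases) 19.3, with mt-Co2 higher in 48.4% of cells, equal in 18.9% and lower in 32.6%. mt-Atp6 had 18.8 and Gm10925 (100% over 678 bases) 18.9, with mt-Atp6 higher in 38.7% of cells and lower in 41.6%. mt-Co3 had 21.3 and Gm28437 (100% over 783 bases) 19.8, with mt-Co3 higher in 65.8% of cells and lower in 21.1%. The same held at low counts. mt-Nd3 had 4.86 and Gm28438 (99.7%) 4.63, and mt-Nd4l had 2.63 and Gm10222 (100%) 2.11. Reads of a gene and its identical copy cannot be told apart by sequence, and how the authors assigned them is not given in the sources used here, so the counts of these mitochondrial genes are uncertain. The sum of mt-Co2 and Gm28661 averaged 39.1 and reached 56 in a cell, above the largest single count in the table.

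A pair of copies on chromosome 1 cover only part of a gene. Gm29216 matches the last 483 bases of mt-Co1 (99.8% identity) and had a mean count of 19, against 25.6 for mt-Co1. Gm28439 matches the first 876 of the 1378 bases of mt-Nd4 (100%) and had 4.93, against 27.7 for mt-Nd4, which was higher in 380 of 380 cells.

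Copies with more differences had lower counts than the mitochondrial gene. Gm13340 on chromosome 2 (97.6% over 1545 bases) had a mean count of 14.03, against 25.6 for mt-Co1, and Gm13341 beside it (95.9%) had 11.1, against 19.7 for mt-Co2. Gm13339 (96.7%, the last 510 bases of mt-Nd2) had 6.32, Gm11410 (92.9%, mt-Cytb) 5.86, Gm4076 (95.2%, mt-Nd5) 4.87, Gm43743 (94.8%, the shortest match, mt-Atp6) 4.35 and Gm11512 (90.7%, mt-Co1) 3.25. Within groups of like depth, the rank correlation with the matching gene was 0.67 for Gm13341, 0.56 for Gm13340 and 0.29 for Gm11410. Gm11407 (92.4%, mt-Nd5) had 0.834. The copy of mt-Nd6, Gm11408 (93.6% over 519 bases), had a count in 0.526% of cells, where mt-Nd6 had one in 67.1%. Each nuclear gene was assigned to its longest match only, and mt-Rnr1, mt-Rnr2, mt-Nd1 and mt-Atp8 were the longest match of none. Shorter matches to these 4 were not looked at.

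The difference between a copy that can be told apart in places and one that cannot is visible in 60-base stretches. The first pair compares mt-Co1 (plus strand, chrM:5787-5846) with Gm13340 (minus strand, chr2:22589129-22589188), with the 4 differing bases in capitals. The second compares mt-Co2 (plus strand, chrM:7013-7072) with Gm28661 (minus strand, chr1:24615506-24615565), which do not differ there. The mt-Co1 stretch shown is richer in differences than the whole gene, where mt-Co1 and Gm13340 differ at 37 of 1545 bases. Other stretches of mt-Co1 therefore hold fewer differences on average, and a read from them is harder to assign.
mt-Co1: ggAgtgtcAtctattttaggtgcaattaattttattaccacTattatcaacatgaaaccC
Gm13340: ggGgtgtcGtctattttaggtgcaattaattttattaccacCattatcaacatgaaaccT
mt-Co2: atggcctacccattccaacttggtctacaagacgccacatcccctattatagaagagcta
Gm28661: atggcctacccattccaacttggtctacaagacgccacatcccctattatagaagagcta

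**Figure D4:**
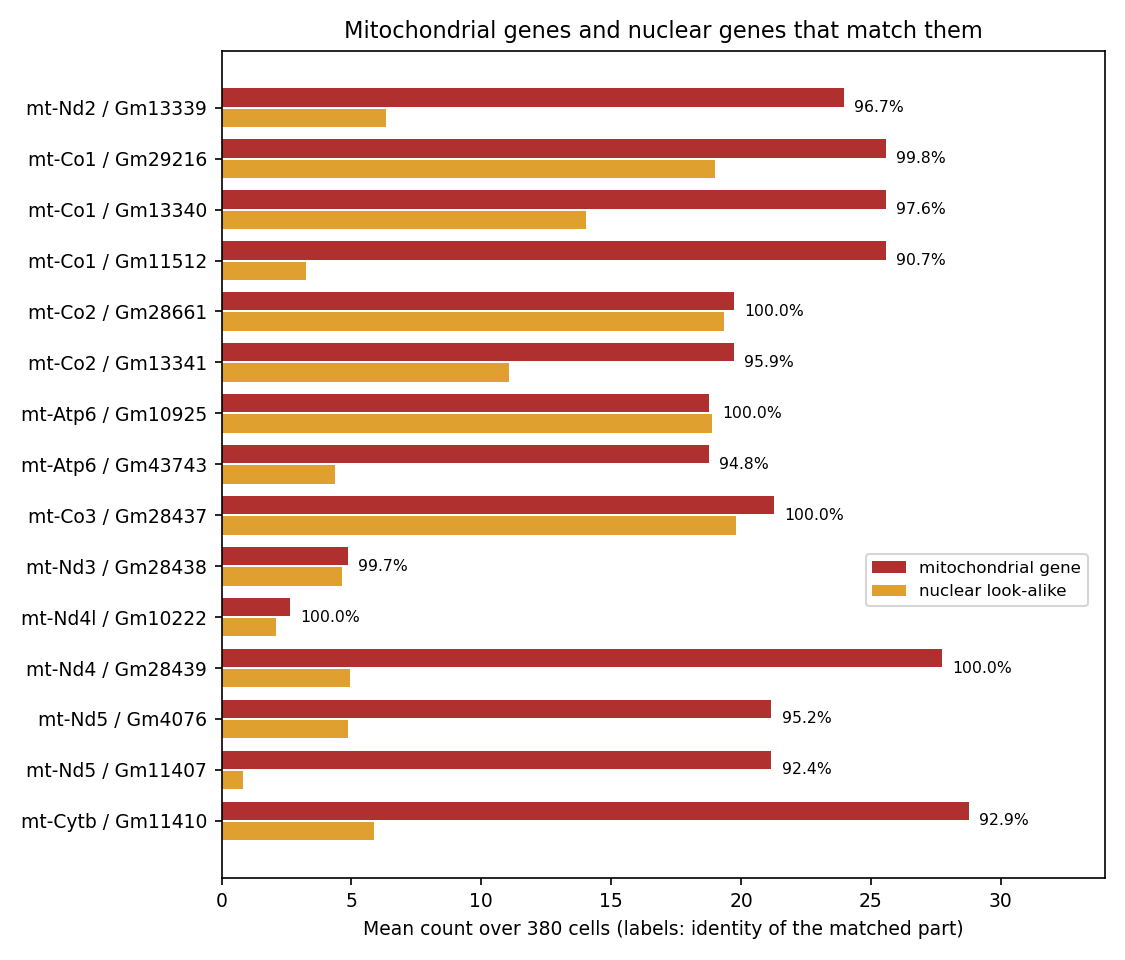
Mean count over 380 cells (horizontal axis) of mitochondrial genes (upper bar) and of the nuclear genes that match them (lower bar), for the 15 matches with a mean count of 0.1 or more, with the identity of the matched part. Whole-length copies at 99.7% or more had counts near those of mt-Co2, mt-Atp6, mt-Co3, mt-Nd3 and mt-Nd4l, and the others had lower counts.

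The mitochondrial coding genes went up and down together from cell to cell, apart from mt-Nd6. Correlations were taken between ranks made within 5 groups of like total count, over 380 cells that share a library preparation and differ in depth within each group. The median over the 78 pairs of coding genes was 0.33, from −0.03 to 0.67. Among the 9 coding genes seen in every cell it was 0.42, from 0.26 to 0.67. The highest pairs were mt-Co2 with mt-Co3 at 0.67, mt-Co2 with mt-Atp6 at 0.61, mt-Nd2 with mt-Co2 at 0.59 and mt-Atp6 with mt-Co3 at 0.58. mt-Co2, mt-Atp6 and mt-Co3 have nuclear copies of identical sequence, and what part shared reads play in these values was not tested.

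Against the summed rank of the other coding genes, mt-Co2 had a rank correlation of 0.73, mt-Co3 0.70, mt-Atp6 0.66, mt-Nd2 0.61 and mt-Co1 0.61. mt-Nd1 had 0.58, mt-Nd5 0.55, mt-Nd4 0.51 and mt-Nd3 0.50. mt-Nd4l (0.40), mt-Cytb (0.38) and mt-Atp8 (0.35) were lower, and so were the ribosomal RNAs mt-Rnr1 (0.29) and mt-Rnr2 (0.29). mt-Nd6 had 0.07, the lowest, and no pair of it with another coding gene was above 0.12. mt-Cytb and the ribosomal RNAs, with counts nearest 30, had the smallest spread over cells among the genes in every cell. The variance over the mean was 0.146 for mt-Cytb, 0.126 for mt-Rnr1 and 0.0965 for mt-Rnr2.

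**Figure D5:**
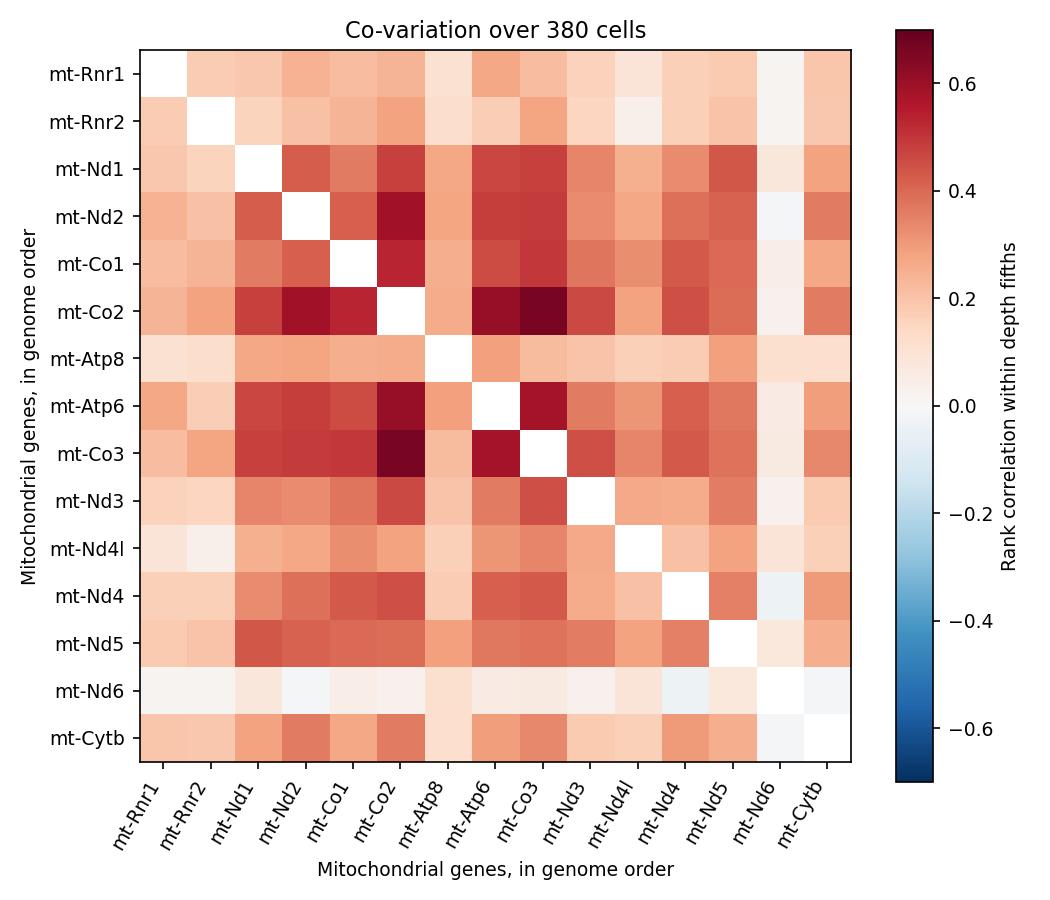
Rank correlation within groups of like total count over 380 cells (colour) for each pair of mitochondrial genes, in genome order on both axes. The darkest block joins mt-Co2, mt-Atp6 and mt-Co3 (0.58 to 0.67), and the row of mt-Nd6 stays between −0.03 and 0.12.

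Nuclear genes of the same complexes had correlations near 0 with them. The 81 nuclear respiratory chain genes tested (of 84 in the table) include Cox6b1, a complex IV subunit, at a mean count of 19.3, Atp5b, the catalytic ATP synthase subunit, at 17.2, and Uqcr10, a complex III subunit, at 16.9. Their correlations with the 13 coding genes had a median of 0.00 over 1053 pairs, from −0.17 to 0.15. With each other the nuclear genes had a median of 0.26. The 78 mitochondrial ribosomal protein genes (Mrpl42 highest, with a mean count of 10.7) had a median of −0.01 with the coding genes. The genes of mitochondrial DNA expression, 33 tested of 34, had a median of 0.01. In that list Slirp, which stabilises mitochondrial messenger RNA, had a mean count of 5.98, Hsd17b10, a part of the RNase that frees the tRNAs, 5.69, and Ssbp1, the single-strand DNA binding protein, 5.16. The lowest were Tfb1m, an rRNA methyltransferase, at 0.668, Tefm, the elongation factor, at 0.613, and Mterf2 at 0.429. The 79 non-mitochondrial genes that averaged at least 16 counts, copies apart, correlated with the 9 high coding genes at a median of 0.01 and with each other at 0.39.

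The genes most like the coding genes were their own copies. Among 4800 genes that averaged at least 2 counts, Gm13341 (0.75), Gm28437 (0.73), Gm28661 (0.73), Gm10925 (0.72) and Gm13340 (0.68) had the highest rank correlation with the summed coding rank over 380 cells. With the copies left out, the highest of 4786 were Stxbp4 (0.35), Xist (0.30), the noncoding RNA of X inactivation, Magi1 (0.27), a junction scaffold protein, Huwe1 (0.26), a ubiquitin ligase, and Srrm2 (0.24), a splicing factor. The search for copies covered annotated transcripts only, so copies in introns or unannotated sequence were not left out, and their part in these values was not tested. Among the lowest were Txn2, the mitochondrial thioredoxin, Tdpx-ps1, Podn and Eif3e, a translation initiation factor subunit, at −0.16 each.

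The study asks about cells with Mex3a, an RNA-binding protein that the study takes as a mark of slowly dividing stem cells. Mitochondrial coding counts differed little between the 47 cells with a count of Mex3a and the rest of the 380, and by less than the spread over library sets. With the cells weighted alike over depth, the log2 ratio of mean counts had a median of −0.04 over the 13 coding genes (SD 0.08 over the 9 library sets with at least 3 such cells). Of the 13, 12 were below 0, against 56.7% of all genes tested, whose median was −0.04 as well. The mean count of mt-Co2 was 18.96 with Mex3a and 19.97 without, and that of mt-Cytb 28.3 with and 28.8 without. The largest difference was that of mt-Nd6, with 1.23 in cells that had Mex3a and 1.66 in the others (log2 ratio −0.40, SD over sets 0.86), and the 1 gene above 0 was mt-Atp8, with 2.94 with and 2.69 without Mex3a (0.12, SD 0.67). Within the library sets the median over the coding genes was above 0 in 6 of 9, so its sign was not steady. The mean totals were 32450 with and 31968 without Mex3a.

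Between cells with a high and a low cell cycle score, coding counts differed by an amount close to the spread over library sets, in a direction that depended on the scaling, while nuclear genes of mitochondria had higher ratios. The top and the bottom of 3 groups by score, made within 5 groups of like total count, held 32.9% and 34.2% of cells. Between them the log2 ratio had a median of 0.04 over the coding genes (SD over 10 sets 0.04). Of the 13, 12 were above 0, beside 52.8% of all genes tested, and the median was 0.07 with counts mapped back and turned to −0.13 with counts divided by the total of each cell. With 1 library set left out at a time it lay between 0.03 and 0.06. mt-Nd2 had a mean count of 24.8 at the top and 23.6 at the bottom (log2 ratio 0.07, SD 0.04). mt-Nd4l had 2.88 at the top and 2.38 at the bottom (0.27, SD 0.44), and mt-Nd6 1.40 at the top and 1.62 at the bottom (−0.19, SD 0.69). mt-Co2 had 20.1 at the top and 19.2 at the bottom (0.07, SD 0.05). Of the 13 coding genes, mt-Nd2 and mt-Co2 differed by more than their spread over sets. In the same cells 79 of the 81 nuclear respiratory chain genes were above 0, with a median of 0.33 (SD 0.21). All 78 mitochondrial ribosomal protein genes were above 0, with a median of 0.42 (SD 0.24), and 28 of the 33 genes of mitochondrial DNA expression, with a median of 0.33 (SD 0.21). The 79 non-mitochondrial genes that averaged at least 16 counts, which are also flattened, had a median of 0.19, with 78 above 0. Mean totals were 33468 at the top and 30998 at the bottom, so depth was not fully matched. With 10 depth groups the median over the coding genes was 0.027, beside 0.036 with 5.

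By the level of Lgr5 itself, coding counts also differed by an amount near the spread over sets, and again the direction depended on the scaling. Between the top and the bottom of 3 groups by Lgr5 count, made in the same way, the log2 ratio had a median of 0.04 over the coding genes (SD over 10 sets 0.06). It was 0.07 with counts mapped back and turned to −0.043 with counts divided by the total. Of the 13, 12 were above 0, beside 62.7% of all genes tested, whose median was 0.08. mt-Nd4l had a mean count of 2.88 at the top and 2.36 at the bottom (log2 ratio 0.28, SD 0.59), and mt-Atp8 2.91 at the top and 2.42 at the bottom (0.26, SD 0.36). mt-Cytb, with 28.9 at the top and 28.7 at the bottom, differed by 0.01. The nuclear respiratory chain genes had a median of −0.04, with 21 of 81 above 0. Mean totals were 32718.5 at the top and 31382.6 at the bottom, so depth was not fully matched here either.

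The 380 kept cells had lower mitochondrial shares and higher mitochondrial counts than the 20 cells left out for totals under 10000. The share had a median of 0.887% in the kept and 2.56% in the left-out cells, where it ran from 1.87% to 3.12%. The summed mitochondrial count averaged 285.5 in the kept and 184.2 in the left-out cells. mt-Rnr2 had a mean count of 30.4 in the kept and 27.5 in the left-out cells, and mt-Cytb had 28.8 in the kept and 22.7 in the left-out cells. mt-Co2 had 19.7 in the kept and 7.8 in the left-out cells, and mt-Nd6 1.58 in the kept and 0.15 in the left-out cells. Relative to kept cells, the ribosomal RNAs were thus the least reduced in the cells with the fewest counts. Their counts also lay nearest the flattened top of the scale, and what part this plays was not tested. These cells were chosen by their total, so the values are a description.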

How the data were processed

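The data were whole-number counts per gene and cell, as deposited by the authors, for 400 cells of 1 sorted population. Per the submitters' processing notes, the build was GRCm38.p4. Which aligner and counter were used, and whether strand or molecular identifiers entered, is not given in the sources used here. Row identifiers were given symbols with GENCODE M21, which named 33219 of 33496. The counts were not normalized. Cells with a total count of at least 10000 were kept (380 of 400). The table holds 0 spike-in rows and 0 pairs of identical cells, the same 40 barcode numbers recur in each of the 10 library sets of the titles, and no doublet caller was run. A gene was tested where at least 10% of kept cells had a count. Ratios between classes of cells were log2 of mean counts plus 0.1, with both classes weighted alike over 5 groups of like total count. The cell cycle score summed ranks of S phase and of G2 and M phase genes. Correlations used ranks within the same groups. Nuclear look-alikes were found with BLAST 2.17.0 (at least 90% identity over 100 bases). Other work used Python 3.11.15, numpy 2.4.6, scipy 1.17.1 and pandas 2.3.3, and the calculations were tested on simulated data. All members were named. Of the nuclear lists the 3 highest or lowest by mean count could be named, and of the other genes the 5 highest and 5 lowest by correlation, of which 1 is not reported here. Members and lists were chosen with earlier results of these data known. Counting precision is given by exact 95% intervals. The mitochondrial tRNA genes were not analysed here.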

Additional observations from a re-analysis of the deposited data

Results flagged for a closer look

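Among 17 groups of 10 library sets that were looked at, 1 had a set far from the others. The mean count of mt-Cytb was 28.3 in the lowest set, and the next set was at 28.6, a gap of 0.493 of the whole range. By chance, about 1 group in 20 would show such a gap. Its cause was not tested.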

How the results depend on the processing

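With counts mapped back from 37 places, the median mitochondrial share was 1.38% (0.887% as counted), the median of the mean coding counts 32.1 (21.2), the median depth ratio 1.30 (1.20) and the coefficient of variation over sets 4.94% (3.27%). With counts divided by each cell's total the depth ratio was 0.58, the cell cycle median −0.13 and the Lgr5 median −0.043. With 1 depth group these medians were 0.22 and 0.15. The top over the bottom of 5 depth groups gave a ratio of 1.30, and correlations without depth groups a median of 0.45. After thinning to 10000 counts, mt-Nd6 had a count in 32.9% of cells. Coding genes alone had a share of 0.699%. Look-alike counts added, an alternative chosen after seeing the data, gave 1.32% for the share, 30.3 for the coding count and 1.28 for the depth ratio. The other 37 of 53 values of these summaries moved by less than their spread. Leaving out each library set gave 0.872% to 0.905% for the share, 20.99 to 21.25 for the coding count, 65.98% to 68.3% for mt-Nd6, 1.16 to 1.22 for the depth ratio, 3.00% to 3.47% for the variation, −0.05 to −0.03 for Mex3a, 0.03 to 0.06 for the cell cycle, 0.03 to 0.05 for Lgr5 and 0.31 to 0.33 for co-variation. Of the values for single genes 46.7% moved by more than their spread, and 0 of 300 when a library set was left out. Those spreads come from the same library sets, so leaving out 1 of them could hardly move a value beyond its spread. No paired analysis was possible because the cells form 1 group. The alternatives for the tRNA genes were not run. A count near 30 limits what can be read from the high genes.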
